A study of Arabidopsis thaliana with 8 samples.

Results

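The transcripts described here are those of 113 low-intensity probes, of 3439 with deposited values, whose signal was several times higher in Arabidopsis thaliana plants kept at high CO2 than in plants at normal CO2. Both groups were wild type, ecotype Columbia 0, the accession most widely used in the laboratory, and their total RNA was measured on 8 expression arrays. The 4 high-CO2 arrays came from plants that ended their growth with 10 days in air of 1% CO2 by volume. The 4 normal-CO2 arrays came from plants titled day 0. Age at harvest, organ and separate planting of the replicates are not given in the labels, so a difference in age cannot be told apart from CO2, and the spread between arrays may be technical.

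Members were chosen by their deposited linear intensities in both groups, with values of 0 kept. A member had a mean below 0.68 over the 8 arrays, a high-CO2 mean of at least 0.1 and at least 3 times the normal-CO2 mean, and a lowest high-CO2 value above the highest normal-CO2 value. Of the 3439 probes, 2651 met the limit on the mean alone. Because the rule used the contrast between the groups, the levels and ratios of members are given as a description, with no test. Intensity on an array depends on the probe as well as on the transcript, so a dim probe need not mean a rare transcript, and in whole tissue fewer cells with a transcript and less of it per cell cannot be told apart.

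High CO2 lets Rubisco, the enzyme that fixes CO2 in the chloroplast, work with little competing oxygenation, and so suppresses photorespiration, the salvage pathway that recycles the product of that side reaction. Plants in such air usually also gain carbohydrate. Most chloroplast proteins are encoded in the nucleus, so that a change in chloroplast metabolism can be accompanied by changes in nuclear transcripts for photosynthesis, organelle gene expression and protein turnover.

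The platform annotation lists 1 gene for 21 of the 113 members, several genes for 32 and has no entry for 60. Over all probes with deposited values the numbers were 692 with 1 gene, 870 with several and 1877 with none. Only the 21 members with 1 listed gene are named by gene, and the others are called by probe number. RefSeq's TAIR10.1 gene table held all 21, of which 19 carry a locus identifier and no symbol.

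The members averaged 0.385 ± 0.0649 (SD, n = 4) in median intensity on the high-CO2 arrays and 0.0894 ± 0.0107 (SD, n = 4) on the normal-CO2 arrays. The array medians over members were 0.343, 0.330, 0.473 and 0.395 at high CO2, against 0.0937, 0.103, 0.0804 and 0.0810 at normal CO2. Together the members made up 1.48% ± 0.173 (SD, n = 4) of the summed intensity at high CO2 and 0.352% ± 0.0417 (SD, n = 4) at normal CO2. The groups stood apart on every array, as the rule requires.

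The ratio of means, high over normal CO2, had a median of 4.09 over the members and ran from 3.01 to 24.9. The median ratio over the 2593 low-intensity probes above 0 at normal CO2 was 0.927. A ratio below 5 was found in 87 members, while 26 had at least 5, 7 at least 10 and 4 at least 15. The gap between the groups, taken as the lowest high-CO2 value over the highest normal-CO2 value, had a median of 2.103 and a range of 1.02 to 9.52. No overlap in this direction was found in 13.9% of the low-intensity probes and in 17.5% of all probes. A ratio of at least 3 was found in 8.64% of the low-intensity probes.

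**Figure D1:**
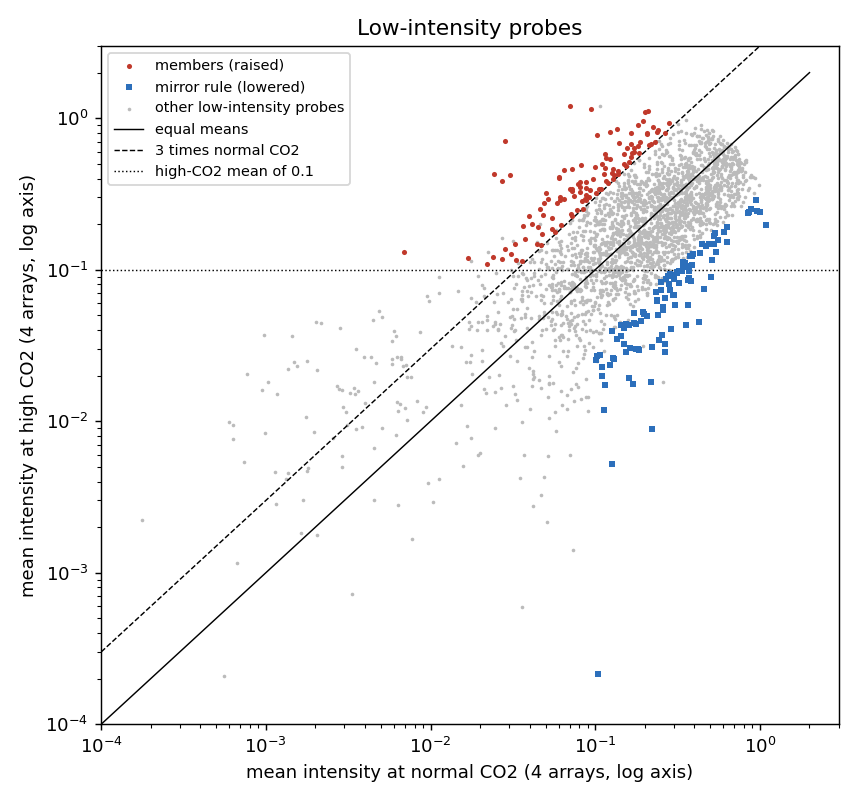
Mean intensity at high CO2 (vertical, log axis) against that at normal CO2 (horizontal, log axis) for low-intensity probes above 0 in both groups, with the 113 members as red circles and the probes that meet the reversed rule as blue squares. Members lie above the dashed line of 3 times the normal-CO2 mean and above the dotted line at 0.1, and 87 of them have a ratio below 5.

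The values nearest the limits show how sharply they divide the probes. The highest mean over the 8 arrays among members was 0.660, and the nearest probe that met every other condition had 0.750. The lowest high-CO2 mean was 0.109 inside and 0.0915 outside. The lowest ratio was 3.01 inside and 2.95 outside, with 246 probes meeting every condition but this one. The condition on overlap removed 10 probes, the nearest of which had its lowest high-CO2 value at 0.911 times its highest normal-CO2 value.

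Among members listed with a chloroplast or mitochondrial protein, AT5G39980, a pentatricopeptide repeat protein of a family that processes organelle RNA, was the brightest at high CO2. Its intensity was 0.694, 0.743, 1.32 and 1.63 on the high-CO2 arrays and 0.273, 0.201, 0.176 and 0.147 on the normal-CO2 arrays. The groups did not overlap, but high-CO2 replicates 3 and 4 stood well above replicates 1 and 2. The ratio of means was 5.50, and it was 3.03 over arrays 1 and 2 of each group and 9.12 over arrays 3 and 4.

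AT1G22700, a tetratricopeptide repeat protein needed for photosystem I to accumulate, had 0.488, 0.424, 0.4996 and 0.396 at high CO2, against 0.205, 0.111, 0.114 and 0.119 at normal CO2. Its high-CO2 arrays were close together, and normal-CO2 replicate 1 was the high one of its group. Its ratio was 3.29, near the limit of the rule.

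AT5G46390 belongs to the carboxyl-terminal processing proteases, the family that matures the D1 protein of photosystem II. It had 0.142, 0.154, 0.213 and 0.394 at high CO2, against 0.111, 0.108, 0.0383 and 0.0330 at normal CO2. The lowest high-CO2 value was only 1.29 times the highest normal-CO2 value. Its ratio of 3.11 was 1.35 over arrays 1 and 2 and 8.52 over arrays 3 and 4.

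AT5G02050, of a mitochondrial matrix glycoprotein family, had 0.176, 0.206, 0.297 and 0.0913 at high CO2, against 0.0242, 0.0531, 0.0591 and 0.0433 at normal CO2. High-CO2 replicate 4 lay closest to the normal-CO2 arrays. The ratio was 4.29, and 2.82 with 0.0363 (the 5th percentile of all values above 0) added to every value.

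AT5G64150, a methyltransferase of the family that modifies peptide release factors, had 0.532, 0.710, 0.600 and 0.533 at high CO2, against 0.198, 0.253, 0.130 and 0.0906 at normal CO2. Its groups were well separated, with a ratio of 3.53. AT5G53920, related to the enzyme that methylates ribosomal protein L11, had 0.154, 0.111, 0.387 and 0.284 at high CO2, against 0.0649, 0.109, 0.0496 and 0.0606 at normal CO2. High-CO2 replicate 2 barely exceeded normal-CO2 replicate 2, and the ratio of 3.30 was 1.53 over arrays 1 and 2 and 6.09 over arrays 3 and 4. AT3G56330, of the enzymes that dimethylate a guanosine in transfer RNA, had 0.124, 0.260, 0.484 and 0.487 at high CO2, against 0.0934, 0.103, 0.00112 and 0.0937 at normal CO2. Its normal-CO2 arrays were alike except replicate 3, which was near 0. The ratio was 4.66, against 1.96 over arrays 1 and 2 and 10.2 over arrays 3 and 4.

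The largest ratio of all members belonged to APTX, an aprataxin-like protein whose animal and yeast relatives repair abortive DNA ligation ends. It had 0.824, 0.855, 0.531 and 0.599 at high CO2, against 0.00291, 0.0540, 0 and 0.0558 at normal CO2. All high-CO2 arrays were at least 9.52 times the highest normal-CO2 array. The ratio of 24.9 was 11.5 with the added value of 0.0363, since its normal-CO2 level is near or at the lower end of the scale.

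AT2G31800, a protein kinase of the integrin-linked type, had 0.427, 0.330, 0.379 and 0.404 at high CO2, against 0.0545, 0.0158, 0.0172 and 0.0212 at normal CO2. The high-CO2 arrays were close together, with an SD of 0.0414 around a mean of 0.385. The ratio of 14.2 depended on normal-CO2 replicate 1: it was 21.3 without that array, 21.4 after quantile normalization, and 6.64 with the added value.

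AT3G55070, with the LisH, CRA and RING-type domains found in a ubiquitin ligase complex, had 0.182, 0.186, 0.128 and 0.0851 at high CO2, against 0.0362, 0.0682, 0.0534 and 0.0296 at normal CO2. Here replicates 1 and 2 were the higher ones at high CO2, the opposite order to AT5G39980. Its ratio was 3.10.

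Of the members listed with proteins of membranes, the cell wall or detoxification, AT5G63390, a putative O-fucosyltransferase, had 0.217, 0.284, 0.441 and 0.420 at high CO2, against 0.0904, 0.0666, 0.0604 and 0.0635 at normal CO2. The ratio was 4.85. AT5G44000, of the glutathione S-transferases, had 0.257, 0.383, 0.213 and 0.254 at high CO2, against 0.0605, 0.0828, 0.0584 and 0.0324 at normal CO2, a ratio of 4.73. Both had groups more than 2-fold apart at their nearest arrays, by 2.40 and 2.57 times.

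AT1G79480, with a carbohydrate-binding domain of the type found in cell wall proteins, had 0.625, 0.665, 0.303 and 0.339 at high CO2, against 0.157, 0.167, 0.140 and 0.146 at normal CO2. Its normal-CO2 arrays were nearly equal, while high-CO2 replicates 1 and 2 were clearly higher than 3 and 4. PRA1.B6, a prenylated RAB acceptor of the endomembrane system, had 0.330, 0.384, 0.366 and 0.501 at high CO2, against 0.159, 0.165, 0.107 and 0.0810 at normal CO2. Their ratios were 3.16 and 3.08.

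The other 7 named members are given without a role in the cell. AT3G25680 had 0.541, 0.427, 0.433 and 0.309 at high CO2, against 0.0224, 0.00637, 0.0300 and 0.0390 at normal CO2. AT1G27610 had 0.337, 0.247, 0.581 and 0.514 at high CO2, against 0.0688, 0.0268, 0.0240 and 0.00246 at normal CO2. AT3G60590 had 0.361, 0.276, 0.350 and 0.289 at high CO2, against 0.0661, 0.0586, 0.0556 and 0.0203 at normal CO2. These were among the largest ratios, at 17.5, 13.8 and 6.36, and with the added value of 0.0363 these ratios became 7.64, 6.83 and 4.11. Leaving out normal-CO2 replicate 1 gave AT1G27610 a ratio of 23.7. Over arrays 1 and 2 and over arrays 3 and 4, the ratio of AT1G27610 was 6.11 and 41.4, and that of AT3G25680 was 33.6 and 10.8. AT4G05490 (3.59), AT1G72020 (3.33), AT3G01060 (3.22) and AT3G19120 (3.18) had ratios close to the limit of the rule. The ratio of AT4G05490 was 1.80 over arrays 1 and 2 and 10.1 over arrays 3 and 4.

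**Figure D2:**
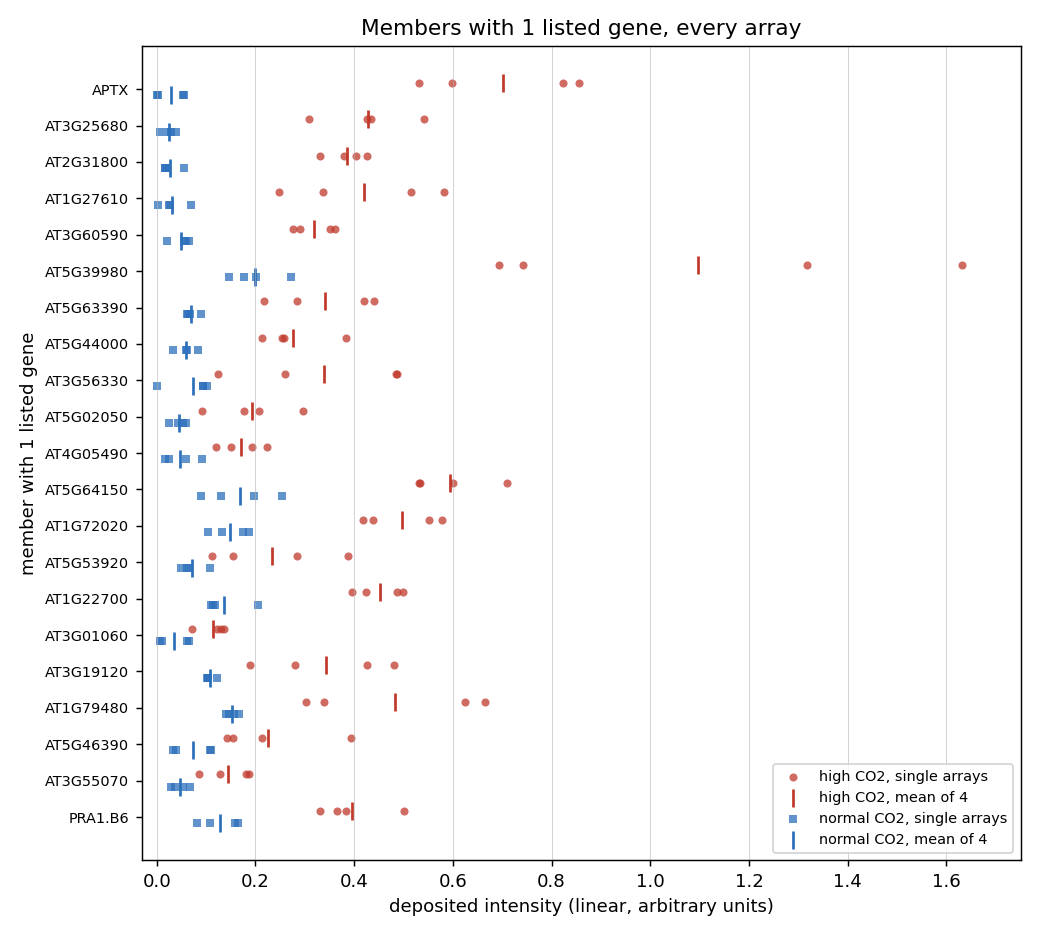
Deposited intensity (linear axis) of the 21 members with 1 listed gene, ordered by ratio of means, with each high-CO2 array as a red circle, each normal-CO2 array as a blue square and vertical ticks for the means of 4 arrays. By the ratio of the lowest high-CO2 to the highest normal-CO2 value, APTX, AT3G25680 and AT2G31800 are the farthest apart, at 9.52, 7.93 and 6.06, and AT5G39980 the highest values and the widest spread at high CO2.

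Members without a single listed gene included the probes with the highest high-CO2 means. Probe 3347 had 0.950, 1.06, 1.35 and 1.48 at high CO2, against 0.0833, 0.121, 0.0342 and 0.0437 at normal CO2, a ratio of 17.1 that was 9.85 over arrays 1 and 2 and 36.3 over arrays 3 and 4. Probe 412 had 0.816, 1.09, 1.30 and 1.37 at high CO2, against 0.0884, 0.115, 0.0818 and 0.0935 at normal CO2, a ratio of 12.1. On both probes every high-CO2 array was at least 7.07 times every normal-CO2 array, a separation exceeded only by APTX and AT3G25680 among the members.

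Probe 160 had 1.05, 0.826, 1.27 and 1.31 at high CO2, against 0.219, 0.211, 0.217 and 0.185 at normal CO2, with the ratio at 5.36. Probe 3952 was the steadiest of all members at high CO2, with 1.04, 0.979, 0.925 and 0.913, against 0.201, 0.188, 0.227 and 0.159 at normal CO2. Its SD at high CO2 was 0.0606 of its mean, where the median over members was 0.254.

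Probe 2129 was the only member at 0 on more than 1 normal-CO2 array. It had 0.118, 0.118, 0.160 and 0.127 at high CO2, against 0, 0, 0 and 0.0276 at normal CO2. Its ratio of 19.0 rests on that single value above 0, and it was 3.87 with 0.0363 added and 4.74 with values of 0 left out. In all, 8 members were at 0 on at least 1 normal-CO2 array and none on a high-CO2 array.

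The remaining members named by the ranking had ratios of 7.54 (probe 239) to 5.09 (probe 4193). Probe 2443 stood at 6.79 and probe 1591 at 5.60, and without normal-CO2 replicate 1 they stood at 11.2 and 9.05. Over arrays 1 and 2 they stood at 4.19 and 3.07, and over arrays 3 and 4 at 11.8 and 13.0. With 0.0363 added to every value, probes 4168 and 4193 had ratios of 2.95 and 2.63, below the limit of the rule. The 72 members not named had high-CO2 means of 0.109 to 0.936, with a median of 0.384, and normal-CO2 means of 0.0221 to 0.282, with a median of 0.103. Their ratios ran from 3.01 to 5.05.

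Within each group, replicates 1 and 2 often stood apart from replicates 3 and 4. At high CO2, replicates 3 and 4 both exceeded replicates 1 and 2 in 63 members (55.8%), and the reverse held in 14 (12.4%). Over all low-intensity probes the first order was seen in 34.4%. At normal CO2, replicates 1 and 2 both exceeded 3 and 4 in 49 members (43.4%), against 34.4% of the low-intensity probes. The labels name no such pairs of arrays. The median intensity of the probes above 0 differed in the same way, at 0.261 and 0.255 on high-CO2 replicates 1 and 2 and 0.319 and 0.323 on replicates 3 and 4. With the arrays scaled to equal medians, replicates 3 and 4 were higher in 40 members at high CO2 (35.4%) and in 19.4% of the low-intensity probes. The reverse order then held in 26 members (23.0%) and in 22.8% of the low-intensity probes. At normal CO2, replicates 1 and 2 were higher in 42 members (37.2%) after this scaling, against 27.7% of the low-intensity probes.

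The ratios of members differed by array pair as well. Over the 112 members above 0 in both pairs of normal-CO2 arrays, the median ratio was 3.30 on arrays 1 and 2 and 5.43 on arrays 3 and 4, and 86 had the larger ratio on arrays 3 and 4. A ratio of at least 3 was reached on both pairs by 62 members. The lowest ratio was 1.35 on arrays 1 and 2 and 2.13 on arrays 3 and 4, and the rule allows none below 1.

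**Figure D3:**
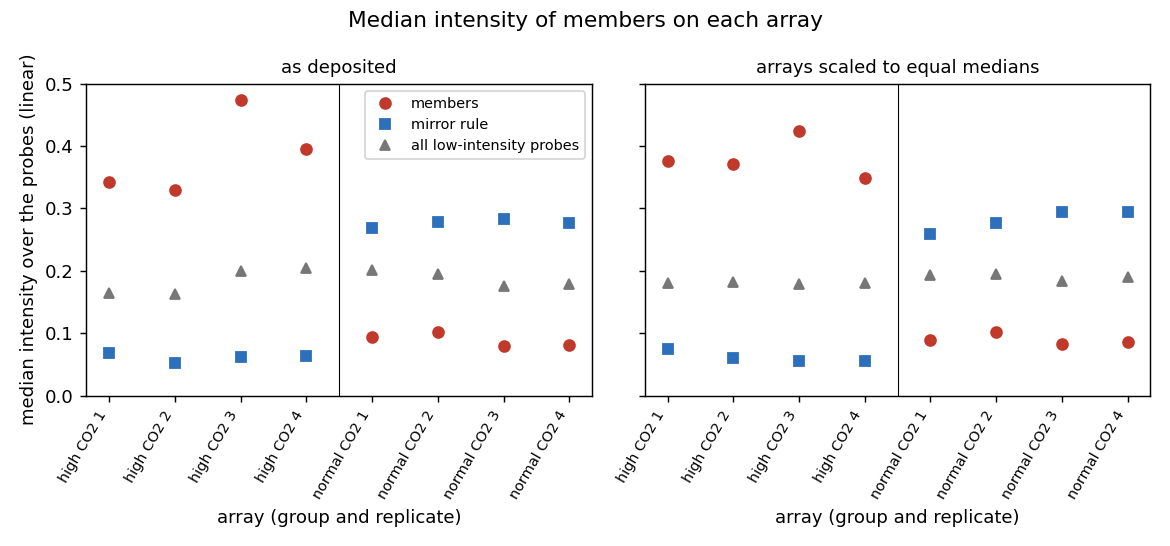
Median intensity (linear axis) over the 113 members (red circles), the 103 probes of the reversed rule (blue squares) and all 2651 low-intensity probes (grey triangles) on each array, as deposited on the left and with arrays scaled to equal medians on the right. The members' medians are 0.330 to 0.473 on the high-CO2 arrays and 0.0804 to 0.103 on the normal-CO2 arrays as deposited.

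The choice of members was repeated without each array in turn, and the values on the array left out were then read. Without 1 high-CO2 array, 107 to 132 probes met the rule, and the array left out lay above all 4 normal-CO2 arrays in 91.7% to 98.1% of them. Of all low-intensity probes this was true in 26.9%, 26.8%, 37.3% and 36% with replicates 1 to 4 left out in turn. At least 3 times the normal-CO2 mean was reached on the array left out by 57.6% to 84.1% of the probes chosen, against 7.88%, 7.5%, 11.6% and 10.6% of the low-intensity probes. Without 1 normal-CO2 array, 97 to 126 probes met the rule, and the array left out lay below all 4 high-CO2 arrays in 96.0% to 98.3% of them, against 20.3%, 21%, 24.5% and 24.3% of the low-intensity probes. A mean at high CO2 of at least 3 times the array left out was found in 57.9% to 85.6% of them, against 11.5%, 11.6%, 14.1% and 14% of the low-intensity probes. The arrays of the other group were used in both steps. Arrays of the same group often went together in pairs, as described above, and their spread may be technical. The array left out was therefore not independent of the arrays used in the choice. These percentages describe the arrays at hand, and whether the pattern holds in separately grown plants was not tested. Of the 113 members, 76 met the rule whichever array was left out.

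In the limma fit over the whole table (moderated test on quantile-normalized log2 intensities, Benjamini-Hochberg adjustment over 3157 probes), 112 members had enough values above 0, and 112 were called higher at an adjusted p under 0.05. Of all tested probes 19.4% were called higher. Since the rule used this contrast, nothing is read from that count.

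The reversed rule, with the groups exchanged, was met by 103 probes, so the reversed pattern was about as common among dim probes as that of the 113 members. Their intensity had a median over probes of 0.0652 at high CO2 and 0.276 at normal CO2. The normal-CO2 mean was a median of 3.93 times the high-CO2 mean, and at least 5 times in 29 probes. Over all low-intensity probes, no overlap was found in 19% in the lowered direction, against 13.9% in the raised direction. The lowered probes reached 0 more often: 52 of 103 were at 0 on at least 1 high-CO2 array, against 8 of 113 members at 0 on at least 1 normal-CO2 array. All of the lowered probes lay above 0 on the normal-CO2 arrays by the rule itself. Of all probes with deposited values, 218 to 253 were at 0 on the high-CO2 arrays and 133 to 154 on the normal-CO2 arrays.

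Some genes are listed for more than 1 probe, which gives a second reading that the rule did not use. Of the 53 members with a listing, 18 shared at least 1 gene with another probe, in 21 pairs. None of these other probes was a member. In 19 pairs the other probe's groups overlapped, and its ratio of high to normal CO2 had a median of 0.985 and a range of 0.441 to 2.43 over the 20 pairs where it could be computed. Both ends of that range came from dim probes, with normal-CO2 means of 0.00636 and 0.0330. In 6 pairs the gene lists were identical. There the members had ratios of 3.22 to 5.66, and the other probes 0.728 to 1.20.

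The 4 members with 1 listed gene in such pairs were mixed in the same way. For AT5G63390 the other probe, 4130, had a mean of 0.885 ± 0.0616 (SD, n = 4) at high CO2 and 0.607 ± 0.0804 (SD, n = 4) at normal CO2, without overlap and in the same direction as the member. For AT5G46390 the other probe, 568, had 0.163 ± 0.0548 (SD, n = 4) at high CO2 and 0.281 ± 0.0168 (SD, n = 4) at normal CO2, without overlap and in the opposite direction. For AT3G25680 and AT3G60590 the other probes had ratios of 1.24 and 1.42, with overlapping groups. The other probe of AT3G60590 was near 0, with means of 0.0102 at high CO2 and 0.00715 ± 0.0143 (SD, n = 4) at normal CO2. Its ratio therefore says little. In each of these 4 pairs the other probe lists further genes as well.

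Such disagreement was not limited to the members. Over all probes with deposited values, 88 pairs with identical gene lists had a value above 0 in both groups, 6 of them with a member. Only gene lists shared by a single pair of probes were used. The log2 ratios of the 88 pairs correlated at r = 0.11 across pairs, which share arrays and are not independent. The sign was the same in 48 pairs (54.5%). Neither figure was computed without the 6 pairs that hold a member. Where such a list holds several genes, the probes of a pair may detect different ones. Whether the listed gene is the transcript detected by a member was not tested, and the gene names above are those of the annotation.

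**Figure D4:**
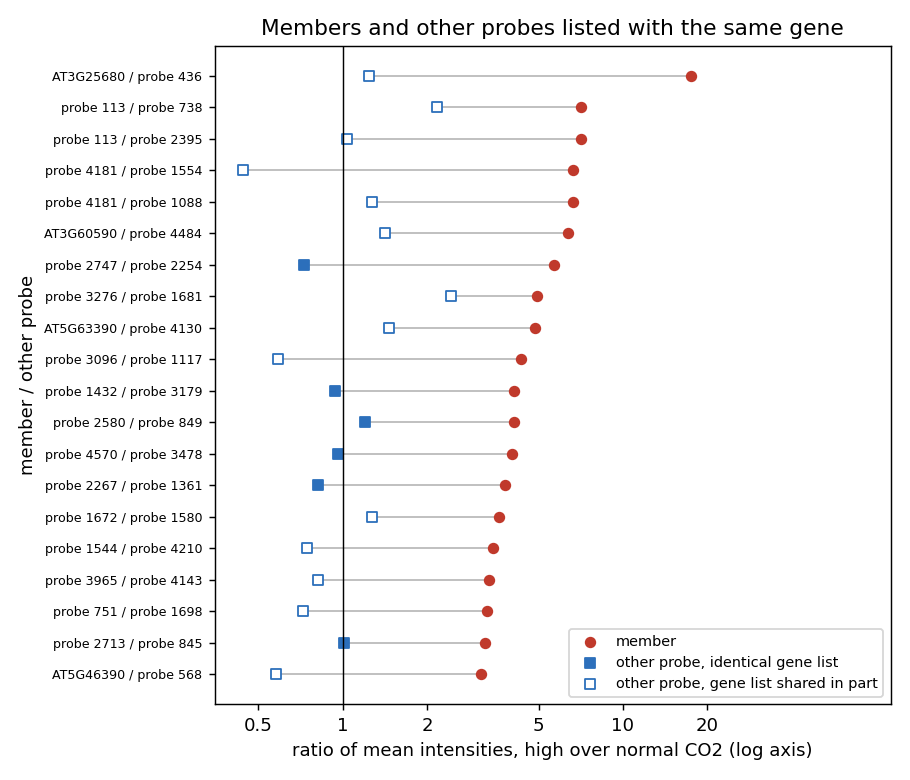
Ratio of mean intensities, high over normal CO2 (log axis), for members (red circles) and for other probes whose listing shares a gene (blue squares, filled where the gene lists are identical), 1 pair per row, in the 20 pairs with a ratio for both. The members lie between 3.11 and 17.5 and the other probes between 0.441 and 2.43.

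Of the 107 genes in lists for photorespiration, the Calvin cycle, carbonic anhydrases, starch, light harvesting, sugar response, flavonoids, stress, nitrogen, plastid synthesis and other organs, 3 had a probe with 1 listed gene, and none was a member. These were the Calvin cycle enzymes PRK and SBPASE and the light-harvesting protein LHB1B2, with ratios of 1.15, 0.686 and 2.86. The remaining genes had no probe with 1 listed gene. Probes that list several genes were not searched, so nothing follows about these pathways.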

How the data were processed

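The authors deposited linear intensities, 1 per numbered probe and array, for 8 arrays. Scaling, background correction, scanner and array type are not given in the sources used here. No value was negative, some were exactly 0 and the highest was 100 (99.999999999 in the table). No count or depth applies, and the number of arrays limits the precision.

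Groups and replicate numbers came from the sample titles. The rule was applied to the values as deposited. Ratios are of mean intensities over 4 arrays. Genes came from the platform annotation, which can be old, matched by gene identifier to RefSeq (TAIR10.1), which held the gene of 690 of the 692 probes with 1 gene. No coordinates or sequences were used.

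The fit used limma (version 3.58.1, R 4.3.3), two-sided, with an intensity trend, on quantile-normalized log2 values with 0 as missing and a minimum of 3 values above 0 per group, and was tested on simulated data. Genes were named by a rule (the 25 largest ratios, the 5 highest high-CO2 means, members at 0 on at least 3 normal-CO2 arrays, members of the lists), which gave 26 probes, 6 of them with 1 gene. The other 15 members with 1 listed gene were added because they have one. The members and lists were chosen with earlier results of these data known. Alternatives were other scalings, limits of the rule, filters, variance models and treatments of 0, the replicate number as a block, and leaving out each array.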

Additional observations from a re-analysis of the deposited data

Results flagged for a closer look

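In 90 checks of 4 arrays each (the named members in each group and 4 medians or shares per array), 6 had an array far from the other 3 by Dixon's criterion, all at normal CO2. Chance flags about 1 in 20 such groups. AT1G22700 had 0.205 on normal-CO2 replicate 1, with the others between 0.111 and 0.119. AT2G31800 had 0.0545 on normal-CO2 replicate 1, with the others between 0.0158 and 0.0212. AT3G56330 had 0.00112 on normal-CO2 replicate 3, with the others between 0.0934 and 0.103. AT3G19120 had 0.123 on normal-CO2 replicate 2, with the others between 0.101 and 0.105. Probe 2129 had 0.0276 on normal-CO2 replicate 4 and 0 on the others. Probe 2483 had 0.0554 on normal-CO2 replicate 2, with the others between 0.0283 and 0.0322. The criterion cannot see a split into 2 and 2 arrays, as in AT5G39980 at high CO2.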

How the results depend on the processing

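The limits of 0.5 and 1 on the mean, the removal of probes at 0, means without values of 0 and the array pairs were chosen after seeing the data. The number of members, 113, stayed within 1.5 times under other scalings (108 to 135), other limits on level (94 to 125) and without each array (97 to 132). It was 235 with a fold limit of 2 and 61 with a limit of 4. The members' median ratio, 4.09, was 3.84 to 4.34 without 1 array, 3.11 with the pseudocount of 0.0363, 3.30 on arrays 1 and 2 and 5.44 on arrays 3 and 4 (113 members); the cause was not tested, although a pseudocount lowers ratios of dim probes by construction. With 4 arrays per group, the values could not decide whether replicate numbers mark pairs. Correlations of same-numbered deviations were 0.0031 to 0.099, and 3 of 4 high-CO2 arrays were closest to their own number. The replicate block left 112 members called by limma, and the other settings gave 103 to 113. The number of members tested changed as well. Without normal-CO2 replicate 1, 103 of 105 tested members were called, and with array weights 107 of 112. Over all probes, 564 of 3116 and 612 of 3157 were called higher in these settings. Of 653 alternative ratios of the 41 named probes, 50 moved by over 1.5 times. Except with rescaled arrays, the rule itself keeps these ratios above 1. In 4 named genes the ratio fell below 2, each on arrays 1 and 2: AT3G56330 (1.96), AT4G05490 (1.80), AT5G53920 (1.53) and AT5G46390 (1.35). No signal over background could be read from the table.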

Other observations

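Of the 113 members, 65 (57.5%) had another member within 10 numbers, against 44 of the 103 lowered probes (42.7%). At the next number, 9 members (7.96%) had another member, against 12 lowered probes (11.7%). The sets differ in size, the share was not computed for all low-intensity probes, and an uneven spread along the probe numbers was not tested. Some long stretches, picked after the values were seen, held lowered probes and no member. No member lay between probes 1114 and 1300, 2267 and 2407, 2580 and 2713, or 3096 and 3276. In other stretches both sets occurred. The densest stretch, found after the values were seen, ran from probe 2443 to probe 2483 and held 9 members among 34 measured probes. AT1G72020 (probe 2455) lies in it. The other low-intensity probes of that stretch had a median ratio of 1.36, high over normal CO2, where the low-intensity probes outside the members had 0.894. The sources used here do not say what the probe numbers mean on the array, and the part of position in the members' ratios was not tested.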
